A study of Mus musculus with 2 samples.

Results

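Genes of blood coagulation and fibrinolysis were described in the myeloid cells of mouse liver. The 8 genes *F3*, *F7*, *F10*, *F13a1*, *Plau*, *Plaur*, *Serpinb2* and *Thbd* were taken by name from the 25909 genes of the single-cell count matrix, and each was described by source cell type, diet and genotype. The 8 were chosen with earlier results of these data known. Each of the 8 was in the matrix with at least 1 count.

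The study asked what the transcription factor *Egr2* does in liver macrophages during diet-induced steatohepatitis and fibrosis. Leukocytes of 4 male mice were sorted from liver as CD45.2+ CD11b+ cells negative for CD90.2, B220, NK1.1 and SiglecF, tagged by mouse with hashtag antibodies, and profiled together. Both methods text and labels name BD Rhapsody capture with TAS-Seq library amplification, while the study's results text names another platform, 10x Chromium. The 4 groups held 1 mouse each, so no difference between them has a replicate check and no test was made.

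All 4 mice carried the floxed *Egr2* allele. The *Egr2* fl/fl mice, called control here, had no Cre. The *Lyz2* Cre/+.*Egr2* fl/fl mice, called Cre here, carried a *Lyz2*-driven Cre that acts in myeloid cells, so the deletion was not limited to macrophages. Each genotype was sampled on a normal diet (ND) and after 7 weeks of CDA-HFD, a high-fat diet of defined amino acids without choline that brings on steatohepatitis and fibrosis. Mice were 6 to 12 weeks old when the diet began. For each ND mouse 3000 cells and for each CDA-HFD mouse 9000 cells were loaded, so the ND values rest on fewer cells.

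After the authors' hashtag doublets were left out (1392 of 16786 barcodes, 8.29%), along with 10 cells with over 25% mitochondrial counts, 15384 cells were analysed. Doublets formed within a single mouse cannot be seen by hashtag and were not removed. The ND control mouse gave 1723 cells with 32029953 counts and a median of 16459 counts per cell. The ND Cre mouse gave 1590 cells with 27840300 counts and a median of 15864. The CDA-HFD control mouse gave 5885 cells with 85227192 counts and a median of 13168. The CDA-HFD Cre mouse gave 6186 cells with 90124521 counts and a median of 13476. Levels are CPM, the summed counts of a gene per 1000000 summed counts of all genes in the same cells. A single count was worth 0.0312, 0.0359, 0.0117 and 0.0111 CPM in these mice, in the same order, so low genes were measured more finely on CDA-HFD. The ranges in parentheses are exact 95% intervals (Poisson for levels, Clopper-Pearson for shares of cells, a binomial split of counts for ratios). They cover counting error only, not the difference between animals, and the sources used here do not say if the counts are reads or molecules.

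Coagulation starts when tissue factor binds factor VII and this pair activates factor X, which leads to thrombin and a fibrin clot. Factor XIII crosslinks the fibrin, and plasmin, made from plasminogen by urokinase bound to its receptor, dissolves it. In the liver, hepatocytes make most circulating coagulation factors, and macrophages are known as a local source of several of the proteins described here.

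The deleted gene was examined first. *Egr2* stood at 13.3 CPM (12.0–14.6) in the ND control mouse, 5.85 CPM (4.99–6.83) in the ND Cre mouse, 49.4 CPM (47.9–50.9) in the CDA-HFD control mouse and 18.2 CPM (17.4–19.1) in the CDA-HFD Cre mouse. The Cre mouse was the lower on both diets, with 0.441 (0.366–0.530) of the control level on ND and 0.369 (0.349–0.391) on CDA-HFD, so the levels followed the genotype labels. *Lyz2* itself stood at 8915, 4016, 11018 and 5876 CPM in the same order, with no value between 0 and 11 in any cell. Its low counts may have been set to 0, which was not tested. Which stretch of the *Egr2* transcript the floxed allele loses, and whether the counted 3′ ends lie in it, was not given in the sources used here.

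Cell classes were gated from 132 marker genes of 22 cell types, none of the markers being 1 of the 8 genes. A cell entered a class when its mean standardized marker score reached 0.5, lay 0.25 above that of any other class and rested on at least 3 detected markers. These limits were set after the data had been seen, and class names end in "-like" because they rest on scores. In all, 11021 cells entered a class and 4363 stayed ungated (22.4% of the ND control mouse, 21.1% of the ND Cre mouse, 29.2% of the CDA-HFD control mouse and 31.1% of the CDA-HFD Cre mouse). A score is a range, and cells near the limit made up 9.86% of neutrophil-like, 22.0% of hepatic lipid-associated macrophage (hLAM)-like, 23.3% of Kupffer cell-like, 24.5% of Ly6C lo monocyte-like, 37.9% of Ly6C hi monocyte-like, 45.7% of monocyte-derived Kupffer cell (moKC)-like, 47.3% of *Slc7a11* macrophage-like and 58.2% of transitional monocyte-like cells. Genes of other classes had medians over cells well under those of their own class: *Timd4* was at 636 CPM in Kupffer cell-like cells and 0 in moKC-like cells, *Gpnmb* at 874 CPM in hLAM-like and 49.8 in *Pf4* macrophage-like cells, *Ly6c2* at 1895 CPM in Ly6C hi and 48.4 in transitional monocyte-like cells. *Ccr2*, in contrast, had medians of 851 CPM in Ly6C hi, 1075 in transitional monocyte-like and 393 in *Pf4* macrophage-like cells. The neutrophil gene *S100a8* reached 33873 CPM in neutrophil-like cells and between 83.6 and 122 CPM in the other myeloid classes. *F7* and *F10* were among the leading genes of hLAM-like and *Slc7a11* macrophage-like cells, and *F13a1* among those of Ly6C hi monocyte-like cells. *F7*, *F10* and *F13a1* also belong to the study's own hLAM gene module, and *F7* and *Serpinb2* to its cluster markers, so their places in those classes are not independent of the study.

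The classes that could be measured differed between the diets. Kupffer cell-like cells made up 35.5% and 36.0% of the ND control and Cre mice and 0.0340% and 0.113% on CDA-HFD. hLAM-like cells numbered 2 and 1 on ND and 363 and 274 on CDA-HFD, and *Slc7a11* macrophage-like cells 9 and 5 on ND and 462 and 335 on CDA-HFD. Ly6C hi monocyte-like cells were present in each mouse (106, 51, 684 and 592 cells). The diets can be set side by side within Ly6C hi and Ly6C lo monocyte-, neutrophil-, moKC- and *Cd209a* dendritic cell-like classes, and within *Xcr1* dendritic cell-like cells in control mice only, but not within the other classes, since at least 50 cells per mouse were asked of any ratio. In unsupervised clusters, 92.6% and 90.1% of hLAM-like cells on CDA-HFD lay in the hLAM-like cluster, which also took 44.2% and 51.6% of *Slc7a11* macrophage-like cells.

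RNA of other liver cells was present in these samples. The 5 hepatocyte markers with a row (*Trf* the most abundant) summed to 571, 895, 275 and 256 CPM in the ND control, ND Cre, CDA-HFD control and CDA-HFD Cre mouse. The 6 endothelial markers (*Clec4g* the most abundant) summed to 189, 350, 26.7 and 54.6 CPM, the 6 stellate cell markers (*Dcn*) to 9.55, 17.0, 9.03 and 14.2 CPM, and the 4 erythroid markers (*Hbb-bs*) to 279, 209, 0 and 1.17 CPM. The 5 platelet markers (*Ppbp*) summed to 0.718, 1.19, 1.41 and 2.91 CPM. The most abundant gene of each list reached 549, 816, 244 and 235 CPM (*Trf*), 49.5, 109, 11.2 and 20.8 CPM (*Clec4g*), 3.56, 7.11, 3.57 and 6.77 CPM (*Dcn*), 109, 83.8, 0 and 1.17 CPM (*Hbb-bs*) and 0, 0.251, 0.505 and 1.76 CPM (*Ppbp*). No marker of these lists with a row was at 0 over the 4 mice together. Hepatocyte, endothelial and erythroid sums were lower on CDA-HFD, where most of the 8 genes were higher, and their part in the results was not tested. The hepatocyte sum was mostly *Trf* in each mouse. Its order between the mice is therefore that of *Trf* and need not hold for the other hepatocyte markers.

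On CDA-HFD, 7 of the 8 genes stood past 2-fold above ND in the control mice, and none stood past 2-fold below. "Past 2-fold" means a ratio of at least 2 or at most 0.5 with at least 50 counts over both mice. Over all genes tested, 5.97% of 16033 were past 2-fold higher and 11.5% lower. Because the genes were chosen with earlier results of these data known, such shares, here and below, are a description and no independent check. The median ratio was 2.35 for the 8 genes and 0.910 for all genes tested. In the Cre mice 7 of 7 tested genes were higher and none lower (*F3* had too few counts), against 5.98% higher and 11.9% lower of 16120 genes, with medians of 4.86 and 0.905. Scaling by edgeR's TMM factors moved the median of all genes to 1.01 in both genotypes and the background to 7.41% higher and 9.42% lower in control and 7.63% higher and 9.71% lower in Cre mice, with 7 of the genes past 2-fold in each. Ratios over all cells mix the level in a cell with the makeup of the sample. With each class that held at least 50 cells in both mice weighted equally, which leaves out Kupffer cell-like, hLAM-like, *Slc7a11* and *Pf4* macrophage-like, transitional monocyte-like and *Ccr7* dendritic cell-like cells, 1 gene (*Plaur*, 2.16) was past 2-fold in control mice and 0 in Cre mice. The direction then turned for *F7* and *Plau* in both genotypes and for *F13a1* in control mice (0.894). Without the cells that passed more than 1 gate (5897 in all), 3 genes remained past 2-fold in control mice (*F7*, *Plaur*, *Thbd*) and 3 in Cre mice (*F7*, *F10*, *Serpinb2*). This setting also takes out 1184 of the 1193 Kupffer cell-like cells, the largest class of the ND mice, and 311 of the 640 hLAM-like cells.

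Between genotypes few of the 8 genes passed 2-fold. On ND, *F10* was lower in the Cre mouse, 0 of the genes were higher and 6 were tested, against 2.36% higher and 1.22% lower of 14458 genes. On CDA-HFD, *F3* and *F7* were lower and 0 of the 8 genes higher, against 1.69% higher and 0.738% lower of 17082 genes. The median ratio of the tested members was 0.759 on ND and 0.792 on CDA-HFD, and that of all genes 1.03 and 1.02.

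**Figure D1:**
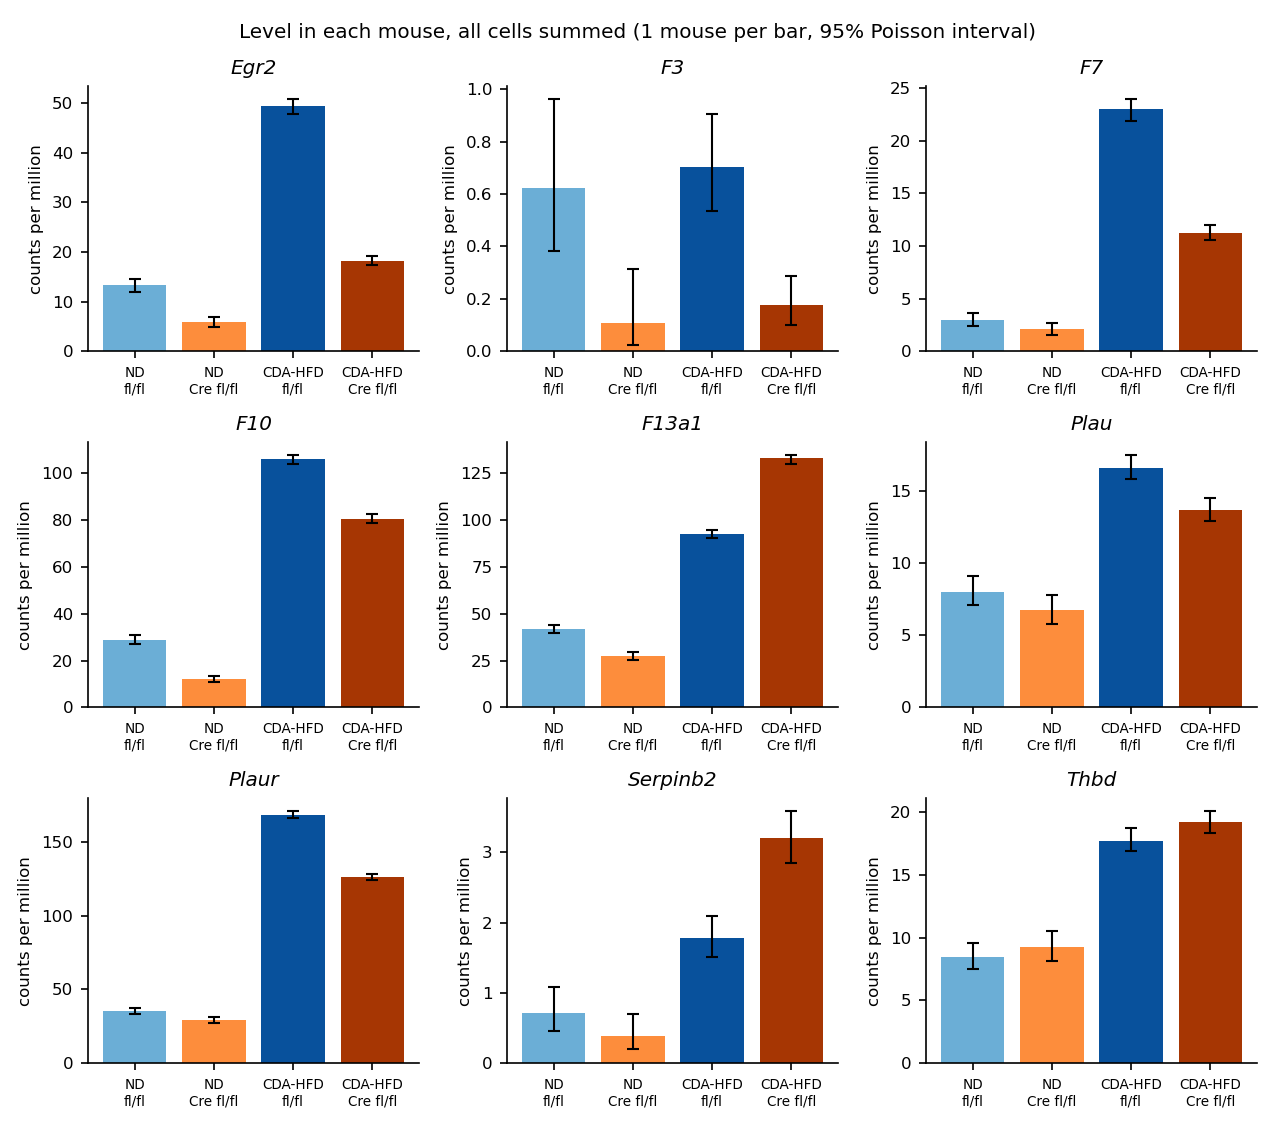
Level of *Egr2* and of the 8 genes over all cells of each mouse, in CPM (linear axes from 0, a separate axis for each gene), with 95% Poisson intervals as error bars. The CDA-HFD bars stand above the ND bars of the same genotype in each panel, from 3.0 to 23.0 CPM for *F7* and from 35.2 to 168 CPM for *Plaur* in control mice, with overlapping intervals for *F3*.

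*F3* encodes tissue factor, the receptor that starts coagulation. Its level was 0.624 CPM (0.381–0.964) in the ND control mouse, 0.108 (0.0222–0.315) in the ND Cre mouse, 0.704 (0.537–0.906) in the CDA-HFD control mouse and 0.178 (0.101–0.288) in the CDA-HFD Cre mouse. These levels rest on 20, 3, 60 and 16 counts, found in 45 of 15384 cells (0.293%), and 8 of the 20 counts of the ND control mouse lay in 1 cell. Both Cre mice were below both control mice, and on CDA-HFD the ratio was 0.252 (0.136–0.443). In cells with at least 90% of hashtag counts from their own hashtag the latter was 0.0989. The diet ratio in control mice was 1.13 (0.670–1.97), so no diet difference was detectable at this depth. A mean over cells gave 2.04, and leaving out cells passing more than 1 gate gave 0.896. In Cre mice the diet ratio was 1.65 (0.472–8.82), and 0.466 in cells with at least 90% of hashtag counts from their own hashtag. By class, *F3* was highest in neutrophil-like cells on CDA-HFD, at 4.46 CPM (2.55–7.25) in the control and 2.33 CPM (1.01–4.59) in the Cre mouse, ahead of hLAM-like cells of the control mouse at 1.69 CPM (1.00–2.67), with overlapping intervals. hLAM-like cells of the Cre mouse held 0 counts. On ND, 12 of the 20 counts of the control mouse came from Kupffer cell-like cells. None of 224 lymphoid-like cells (T, NK and B cell-like, which the sort was meant to leave out) had a count, at a median depth of 7986 counts.

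*F7* encodes factor VII, the protease that binds tissue factor. Its level was 3.0 CPM (2.43–3.66) in the ND control mouse, 2.08 (1.58–2.69) in the ND Cre mouse, 23.0 (21.9–24.0) in the CDA-HFD control mouse and 11.2 (10.6–12.0) in the CDA-HFD Cre mouse. The CDA-HFD mice were the higher in both genotypes, with the control mouse the highest of the 4. The diet ratio was 7.66 (6.24–9.50) in control mice and 5.40 (4.14–7.16) in Cre mice. In control mice it was 14.2 in cells with at least 90% of hashtag counts from their own hashtag and 2.89 without cells passing more than 1 gate, and in Cre mice 2.13 without these cells. With classes weighted equally it turned below 1 in both genotypes, at 0.851 and 0.750. On ND a single cell held 26 of 96 counts in the control and 18 of 58 in the Cre mouse. Between genotypes the ratio was 0.695 (0.493–0.973) on ND and 0.490 (0.454–0.529) on CDA-HFD, the latter 0.601 as a mean over cells and 0.568 without cells passing more than 1 gate, both short of 2-fold.

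On CDA-HFD, hLAM-like cells led for *F7*, at 114 CPM (108–121) in the control and 51.6 CPM (46.5–57.0) in the Cre mouse, and held 62.2% and 37.5% of all *F7* counts of those mice, with 19.0% and 27.4% in ungated cells. *Slc7a11* macrophage-like cells came next at 35.7 CPM (31.3–40.6) and 34.9 CPM (30.0–40.4), separated from hLAM-like cells in both mice. Then followed *Pf4* macrophage-like cells at 9.51 CPM (6.15–14.0) in the control mouse, overlapping with Ly6C hi monocyte-like cells at 5.22 CPM (3.84–6.95), and transitional monocyte-like cells at 8.56 CPM (6.97–10.4) in the Cre mouse. A count of *F7* was found in 40.2% of hLAM-like cells of the control mouse and 22.3% of the Cre mouse, at median depths of 28218 and 25167 counts. Thinned to 3000 counts per cell, these shares were 20.1% and 9.49%. In lymphoid-like cells the share was 0.446% at a median depth of 7986 counts, and 0 when thinned. On ND 61.5% and 44.8% of the *F7* counts came from ungated cells. The 9 *Slc7a11* macrophage-like cells of the ND control mouse held 12.5% and 1 hLAM-like cell of the ND Cre mouse 15.5%, and Kupffer cell-like cells stood at 0.642 CPM (0.308–1.18) and 0.991 CPM (0.528–1.69).

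Within hLAM-like cells on CDA-HFD, *F7* was past 2-fold lower in the Cre mouse, at a ratio of 0.451 (0.401–0.506). It was 1 of 6 members tested there, against 1.51% of 10570 genes past 2-fold lower. In *Slc7a11* macrophage-like cells the same comparison gave 0.977 (0.801–1.19) and in transitional monocyte-like cells 1.64, so *F7* passed 2-fold in hLAM-like cells and not in these neighbouring classes, a difference between classes that was not tested. *Pf4* macrophage-like cells gave 0.234 (0.0911–0.535) from 8 and 25 counts, under the count minimum and on the same side as hLAM-like cells. The ratio in Ly6C hi monocyte-like cells, 0.384 (0.203–0.690), rests on 47 and 16 counts in 11 and 7 cells, and was 0.759 when classes were taken from clusters. *Egr2* itself was lower in the Cre mouse in these macrophage classes, at 0.392 in hLAM-like, 0.249 in *Slc7a11* macrophage-like and 0.0779 in *Pf4* macrophage-like cells. It was also lower in moKC-like cells, at 0.0732, and in Ly6C hi and transitional monocyte-like cells, at 0.443 and 0.203.

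*F10* encodes factor X, the protease that the tissue factor and factor VII pair activates. Its level was 28.8 CPM (27.0–30.7) in the ND control mouse, 12.1 (10.9–13.5) in the ND Cre mouse, 106 (104–108) in the CDA-HFD control mouse and 80.7 (78.8–82.6) in the CDA-HFD Cre mouse. The 4 intervals do not overlap, and each Cre mouse was below the control mouse on the same diet. The diet ratio was 3.69 (3.45–3.95) in control and 6.65 (5.96–7.43) in Cre mice. It fell to 1.29 and 2.27 without cells passing more than 1 gate and to 1.99 and 1.75 with classes weighted equally. Between genotypes the ratio was 0.422 (0.371–0.478) on ND and 0.759 (0.736–0.783) on CDA-HFD. The ND difference was not past 2-fold within the classes that could be compared: *F10* had ratios of 1.47 (1.11–1.95) in Ly6C hi monocyte-like, 1.42 in Kupffer cell-like and 1.08 in Ly6C lo monocyte-like cells, while ungated cells stood at 54.4 CPM (49.0–60.1) in the control and 16.6 CPM (13.6–20.1) in the Cre mouse. Neutrophil-like cells gave 0.264 (0.0582–0.986) from 4 and 8 counts, under the count minimum and on the same side as the ratio over all cells. The 9 *Slc7a11* macrophage-like and 2 hLAM-like cells of the ND control mouse, with 158 and 48 of its 922 counts, were too few for a ratio. An unnamed cluster, seen after the values were known and led by *Cxcl9* and *Cxcl10*, held 165 cells of the ND control and 27 of the ND Cre mouse (62 and 67 on CDA-HFD) and had *F10* at 159 CPM over all mice, and its part in the difference was not tested. With classes weighted equally the ND ratio was 1.18.

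*F10* followed another order. On CDA-HFD, *Slc7a11* macrophage-like cells led at 348 CPM (334–362) in the control and 271 CPM (257–286) in the Cre mouse, followed by Ly6C hi monocyte-like cells at 212 CPM (203–222) and 204 CPM (194–214), separated in both mice. Ly6C lo monocyte-like cells came next at 132 CPM (118–146) and 151 CPM (138–164), then hLAM-like cells at 127 CPM (121–134) and 94.9 CPM (87.9–102). The intervals of Ly6C lo monocyte-like and hLAM-like cells overlap in the control mouse and not in the Cre mouse. Transitional monocyte-like cells stood at 57.4 CPM and 57.7 CPM, and dendritic cell-like classes at 15.6 CPM or lower. Ungated cells held 27.1% and 29.0% of the *F10* counts of the CDA-HFD control and Cre mouse, and *Slc7a11* macrophage-like cells 25.3% and 19.4%. Another unnamed cluster, of 608 cells and picked out by its values, had *F10* at 295 CPM over all mice. On ND, Ly6C hi monocyte-like cells had 86.1 CPM (71.9–102) in the control and 127 CPM (101–157) in the Cre mouse, overlapping with Ly6C lo monocyte-like cells at 74.3 CPM (58.1–93.5) and 80.1 CPM (60.5–104), and Kupffer cell-like cells had 2.95 CPM (2.16–3.94) and 4.19 CPM (3.16–5.46). In the ND control mouse 9 *Slc7a11* macrophage-like cells also held 158 of the 922 *F10* counts (17.1%) and 2 hLAM-like cells 48 (5.21%), beside 14.0% in Ly6C hi and 7.81% in Ly6C lo monocyte-like cells. A count was found in 50.2% and 51.9% of *Slc7a11* macrophage-like cells (34.4% and 33.1% when thinned) and in 10.9% and 2.13% of lymphoid-like cells (2.17% and 0 when thinned) of the CDA-HFD control and Cre mouse. Median depths were 14272 and 15667 counts in *Slc7a11* macrophage-like and 7808 and 7958 in lymphoid-like cells.

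Within Ly6C hi monocyte-like cells the diet ratio of *F10* was 2.46 (2.06–2.97) in control mice and 1.61 in Cre mice, and the difference between genotypes was not tested. In neutrophil-like cells of Cre mice it was 3.09 (1.14–11.8), past 2-fold, from 50 and 4 counts. In Ly6C hi monocyte-like cells, with *Thbd* at 10.1 (4.88–25.4), it was 1 of 2 members past 2-fold higher of 5 tested in control mice, against 7.62% of 9116 genes. Taking the class from clusters gave *F10* a ratio of 1.95, short of 2-fold. Genotypes on CDA-HFD gave *F10* ratios of 0.746 in hLAM-like, 0.780 in *Slc7a11* macrophage-like and 0.963 in Ly6C hi monocyte-like cells, all short of 2-fold.

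*F7* and *F10* are neighbours in the genome. In GENCODE vM21 (GRCm38) *F7* lies at chr8:13026034-13035809 and *F10* at chr8:13037308-13056676, both on the plus strand, with 1498 bases from the end of *F7* to the start of *F10*. Among hLAM-like cells of the CDA-HFD control mouse, *F10* was found in 65.8% (57.5–73.4) of the 146 cells with an *F7* count and in 43.3% (36.6–50.2) of the 217 cells without, at median depths of 28674 and 27440 counts. In the Cre mouse the shares were 57.4% (44.1–70.0) and 27.7% (21.8–34.2) at depths of 24302 and 25326. *Slc7a11* macrophage-like cells gave 82.6% against 46.6% in the control and 75.6% against 48.6% in the Cre mouse, where the cells with *F7* were deeper (19700 against 13562 and 19327 against 14818 counts). In hLAM-like cells, *F10* was thus found more often beside *F7* at similar depth.

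*F13a1* encodes the A subunit of factor XIII, the enzyme that crosslinks fibrin. Its level was 41.7 CPM (39.5–44.0) in the ND control mouse, 27.3 (25.4–29.3) in the ND Cre mouse, 92.6 (90.5–94.6) in the CDA-HFD control mouse and 133 (130–135) in the CDA-HFD Cre mouse. Both CDA-HFD mice were above both ND mice, and the order of the genotypes differed between the diets. The diet ratio was 2.22 (2.09–2.35) in control mice, 1.72 as a mean over cells, and 4.86 (4.52–5.24) in Cre mice. It was 1.09 and 1.99 without cells passing more than 1 gate and 0.894 and 1.34 with classes weighted equally. Between genotypes the ratio was 0.654 (0.598–0.716) on ND and 1.43 (1.39–1.48) on CDA-HFD, both short of 2-fold. *F13a1* overlaps the annotated genes *Gm30489* and *Gm49144*, and counts of overlapping genes are uncertain.

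Ly6C hi monocyte-like cells held more *F13a1* counts than any other class in each mouse. The class led at 489 CPM (454–526) in the ND control, 476 CPM (425–532) in the ND Cre, 445 CPM (431–459) in the CDA-HFD control and 613 CPM (596–630) in the CDA-HFD Cre mouse, and held 54.9%, 42.0%, 50.8% and 40.8% of the *F13a1* counts, with 26.4%, 31.7%, 22.8% and 27.5% in ungated cells. A count was found in 67.9%, 86.3%, 80.7% and 83.3% of these cells (54.7%, 64.7%, 56.0% and 63.2% when thinned), against 2.53%, 5.77%, 15.2% and 8.51% of lymphoid-like cells (0, 1.92%, 13% and 2.13% when thinned). On CDA-HFD the order then ran, with no overlap between neighbours, through transitional monocyte-like cells at 125 CPM (117–133) and 192 CPM (184–200), *Slc7a11* macrophage-like cells at 74.8 CPM (68.3–81.7) and 138 CPM (128–149) and *Pf4* macrophage-like cells at 44.5 CPM (36.8–53.3) and 76.9 CPM (68.1–86.6) in the control and Cre mouse. hLAM-like cells stood at 18.5 CPM and 20.8 CPM. Lymphoid-like cells stood at 77.5 CPM (55.1–106) in the control mouse, from 39 counts in 7 cells, and 17.1 CPM (7.36–33.6) in the Cre mouse. In the control mouse, *Slc7a11* macrophage-, *Pf4* macrophage- and hLAM-like levels were not above that of lymphoid-like cells. The Cre mouse was above the control mouse in each of these 4 leading classes, at ratios of 1.38 (1.32–1.44), 1.54 (1.43–1.66), 1.85 (1.65–2.08) and 1.73 (1.39–2.17), all short of 2-fold. As a mean over cells the last 2 ratios were 2.05 and 2.07, past 2-fold. In Kupffer cell-like cells of ND mice *F13a1* stood at 4.11 CPM and 5.41 CPM.

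Within Ly6C hi monocyte-like cells the diet ratio of *F13a1* was 0.910 (0.841–0.986) in control and 1.29 (1.15–1.45) in Cre mice, neither past 2-fold, and 0.577 with clusters in control mice. The main class of *F13a1* was therefore not past 2-fold between the diets in either genotype. In Cre mice *F13a1* was past 2-fold higher on CDA-HFD in 2 other classes, Ly6C lo monocyte-like cells at 2.20 (1.15–4.72) and neutrophil-like cells at 5.45 (1.78–27.1), from 10 and 3 counts on ND. The former was 14.3 under a stricter gate, and neutrophil-like cells of control mice gave 0.751 (0.394–1.58), on the other side of 1. In *Cd209a* dendritic cell-like cells, *F13a1* was lower on CDA-HFD in control mice, at 0.283 (0.206–0.393) against 1.32 (0.698–2.75) in Cre mice, and lower in the Cre mouse on ND, at 0.166 (0.0793–0.317). Both ratios rest on the 68 counts of the ND control mouse, which lay in 7 cells. They were 0.182 with clusters for the diet and 0.359 in cells with at least 90% of hashtag counts from their own hashtag for the genotype.

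**Figure D2:**
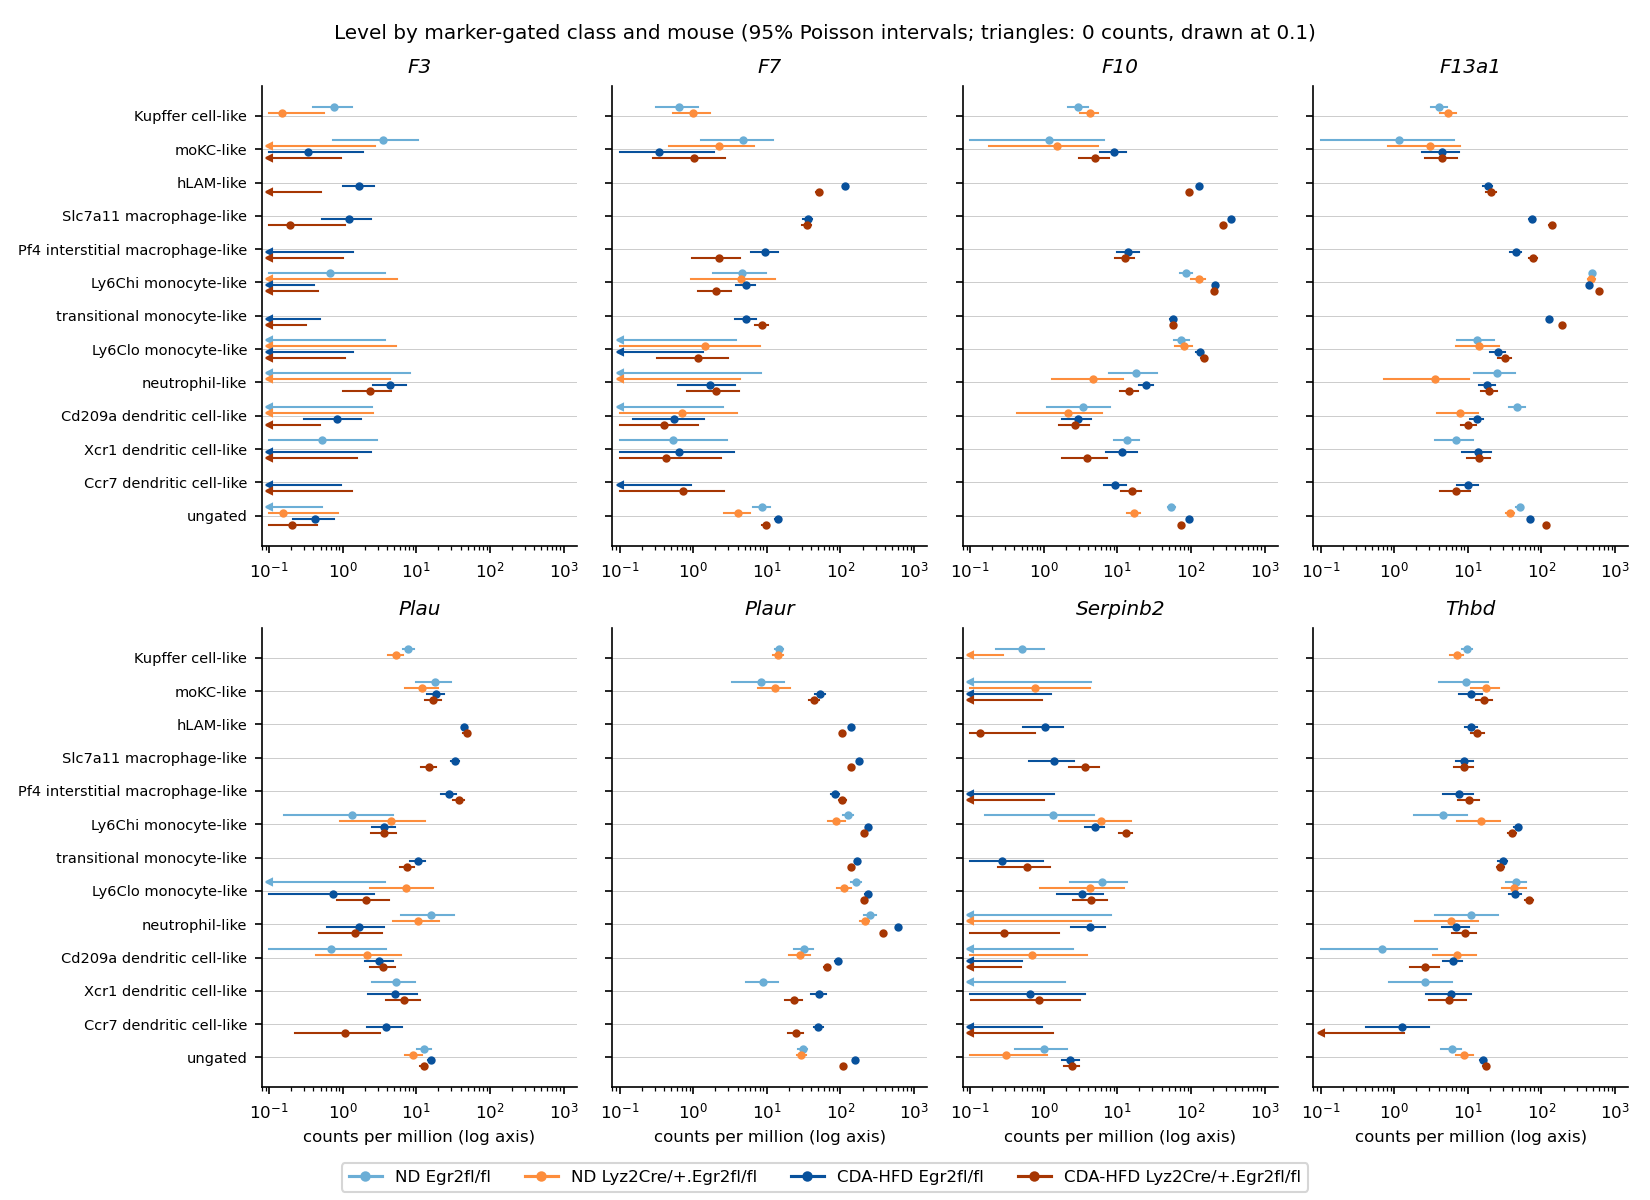
Level of the 8 genes in 12 marker-gated classes and in ungated cells, by mouse, in CPM on a log axis, with 95% Poisson intervals as lines and triangles at 0.1 for 0 counts. *F7* stands highest in hLAM-like cells (114 and 51.6 CPM on CDA-HFD), *F13a1* in Ly6C hi monocyte-like cells (445 to 613 CPM) and *Plaur* in neutrophil-like cells (213 to 602 CPM).

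*Plau* encodes urokinase, which turns plasminogen into plasmin. Its level was 8.02 CPM (7.07–9.07) in the ND control mouse, 6.72 (5.79–7.75) in the ND Cre mouse, 16.6 (15.8–17.5) in the CDA-HFD control mouse and 13.7 (12.9–14.5) in the CDA-HFD Cre mouse. The genotypes lay close together and the diets apart, with diet ratios of 2.07 (1.81–2.37) in control and 2.04 (1.75–2.39) in Cre mice. As a mean over cells, which gives shallow and deep cells the same weight, the ratios were 1.29 and 1.04, short of 2-fold, without cells passing more than 1 gate 1.72 and 1.76, and with classes weighted equally they turned below 1, at 0.810 and 0.759. Between genotypes the ratios were 0.837 on ND and 0.825 on CDA-HFD.

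On CDA-HFD *Plau* was highest in hLAM-like cells, at 45.1 CPM (41.2–49.3) in the control and 48.3 CPM (43.4–53.6) in the Cre mouse, which held 33.9% and 28.8% of the counts. In the control mouse *Slc7a11* macrophage-like cells at 33.4 CPM (29.2–38.2) and *Pf4* macrophage-like cells at 27.8 CPM (21.8–34.9) followed and overlapped with each other. In the Cre mouse *Pf4* macrophage-like cells at 37.8 CPM (31.7–44.7) overlapped with hLAM-like cells, and *Slc7a11* macrophage-like cells stood at 14.8 CPM (11.7–18.5). The hLAM-like level of the Cre mouse was 31.6 CPM as a mean over cells, 33.1 CPM with clusters and 29.3 CPM without the 1% of cells highest for the gene. These lie below the main value of *Pf4* macrophage-like cells, a comparison across settings. With clusters over all mice, *Plau* stood at 37.2 CPM in the hLAM-like and 19.4 CPM in the *Pf4* macrophage-like cluster. In the Cre mouse 1 cell held 68 of the 1235 *Plau* counts. Ly6C hi monocyte-like cells had 3.67 CPM (2.52–5.15) and 3.64 CPM (2.44–5.22), below these 3 macrophage-like classes. Transitional monocyte-like cells had 10.4 CPM and 7.54 CPM. On ND, Kupffer cell-like cells had 7.83 CPM (6.51–9.35) and 5.26 CPM (4.09–6.66) and held 47.5% and 36.9% of the counts, moKC-like cells had 17.7 CPM and 12.1 CPM, and neutrophil-like cells 15.6 CPM (6.27–32.1) and 10.6 CPM (4.85–20.1). The share of hLAM-like cells with a count was 24.8% and 18.6% (11% and 5.47% when thinned), against 1.34% of lymphoid-like cells (0 when thinned). In *Slc7a11* macrophage-like cells *Plau* was past 2-fold lower in the Cre mouse, at 0.442 (0.336–0.575), but 0.776 under a stricter gate and 0.564 in cells with at least 90% of hashtag counts from their own hashtag.

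*Plaur* encodes the urokinase receptor, which holds urokinase at the cell surface. Its level was 35.2 CPM (33.2–37.4) in the ND control mouse, 29.0 (27.0–31.1) in the ND Cre mouse, 168 (166–171) in the CDA-HFD control mouse and 126 (124–128) in the CDA-HFD Cre mouse. The diets were far apart in both genotypes, at ratios of 4.78 (4.50–5.08) and 4.34 (4.04–4.67). Without cells passing more than 1 gate they were 2.75 and 1.81, and with classes weighted equally 2.16 and 1.99, so short of 2-fold in Cre mice. A count was found in 20.1% and 19.9% of all cells on ND and in 49.4% and 40.3% on CDA-HFD. Between genotypes the ratio was 0.822 on ND and 0.747 (0.729–0.766) on CDA-HFD.

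Among classes with at least 50 cells in a mouse, the limit for each order of classes given here, *Plaur* was highest in neutrophil-like cells in each mouse, at 252 CPM (207–303) in the ND control, 213 CPM (183–246) in the ND Cre, 602 CPM (577–628) in the CDA-HFD control and 374 CPM (354–395) in the CDA-HFD Cre mouse. These cells were shallow, with median depths of 3808, 3950, 4098 and 4071 counts, and 36.4%, 34.7%, 51.8% and 41.2% of them had a count (30.8%, 30.1%, 48.2% and 36.4% when thinned). In lymphoid-like cells the shares were 8.86%, 11.5%, 28.3% and 17.0% (5.06%, 7.69%, 15.2% and 4.26% when thinned). Monocyte-like cells followed, with Ly6C hi at 127, 88.1, 239 and 210 CPM and Ly6C lo at 161, 113, 234 and 210 CPM over the 4 mice in the same order, their intervals overlapping in each mouse. hLAM-like cells stood at 137 CPM (130–145) and 105 CPM (97.5–112) and Kupffer cell-like cells of ND mice at 14.8 CPM and 14.3 CPM. In the ND control mouse the 9 *Slc7a11* macrophage-like cells held 74 of the 1129 *Plaur* counts (6.55%). *Plaur* thus had counts in each of the 12 myeloid classes, with neutrophil-like cells first and Kupffer cell-like cells low. Lymphoid-like cells stood at 39.8 and 38.6 CPM on ND and 127 and 57.6 CPM on CDA-HFD in the control and Cre mice. Kupffer cell-like cells of ND mice and moKC-like cells of each mouse were below these levels. So were *Xcr1* dendritic cell-like cells of the ND control (8.91 CPM) and the CDA-HFD control and Cre mice (50.6 and 23.2 CPM). *Ccr7* dendritic cell-like cells on CDA-HFD (49.9 and 24.7 CPM) were also below. In the CDA-HFD control mouse, *Pf4* macrophage- and *Cd209a* dendritic cell-like cells (84.0 and 92.4 CPM) were below too. On ND, *Cd209a* dendritic cell-like cells (32.2 and 28.2 CPM) were below with overlapping intervals.

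*Plaur* was the member most often past 2-fold higher on CDA-HFD within a class. In control mice its ratio was 6.44 (3.05–16.3) in moKC-like, 5.68 (3.33–10.2) in *Xcr1* dendritic cell-like, 2.87 (2.13–3.95) in *Cd209a* dendritic cell-like and 2.39 (1.98–2.92) in neutrophil-like cells, and short of 2-fold at 1.89 in Ly6C hi and 1.45 in Ly6C lo monocyte-like cells. In Cre mice it was 3.40 (2.06–5.98) in moKC-like, 2.38 (1.84–3.14) in Ly6C hi monocyte-like (1.91 with clusters) and 2.35 (1.70–3.32) in *Cd209a* dendritic cell-like cells, and 1.76 in neutrophil-like cells. Means over cells gave 3.76 in moKC-like and 3.75 in *Xcr1* dendritic cell-like cells of control mice, and clusters 5.32 in their *Cd209a* dendritic cell-like cells. Lymphoid-like cells were also higher on CDA-HFD, at 127 against 39.8 CPM in control and, with overlapping intervals, 57.6 against 38.6 CPM in Cre mice. In the CDA-HFD control mouse, moKC-, *Xcr1* dendritic cell- and *Cd209a* dendritic cell-like cells (53.3, 50.6 and 92.4 CPM) lay below that lymphoid-like level. The part of RNA from other cells in these *Plaur* ratios was not tested. The *Xcr1* dendritic cell-like class is mixed: the cluster of that name held 35.1% of it in the ND control, 22.5% in the CDA-HFD control and 46.8% in the CDA-HFD Cre mouse, and the 106 cells of that cluster had 3 *Plaur* counts (1.07 CPM), so the *Plaur* values of the class come mostly from cells that clustered elsewhere. The moKC-like class held different cells on the 2 diets: 60.7% and 63.2% of it lay in the Kupffer cell-like cluster on ND and 55.1% and 70.3% in the *Pf4* macrophage-like cluster on CDA-HFD. Between genotypes on CDA-HFD, *Plaur* was past 2-fold lower in *Ccr7* dendritic cell-like cells at 0.495 (0.370–0.655) and in the 71 and 94 *Xcr1* dendritic cell-like cells at 0.458 (0.318–0.657), with 0.549 and 0.602 as means over cells. Both classes are mixed. The *Ccr7* dendritic cell-like cluster held 48.6% and 57.5% of its class and had 59 *Plaur* counts over all mice, against 196 and 68 in the class, and gave a ratio of 0.262. In neutrophil-like cells the ratio was 0.622 (0.580–0.667).

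*Serpinb2* encodes plasminogen activator inhibitor 2, which inhibits urokinase. Its level was 0.718 CPM (0.455–1.08) in the ND control mouse, 0.395 (0.197–0.707) in the ND Cre mouse, 1.78 (1.51–2.09) in the CDA-HFD control mouse and 3.20 (2.84–3.59) in the CDA-HFD Cre mouse, from 23, 11, 152 and 288 counts. Both CDA-HFD mice were above both ND mice, at ratios of 2.48 (1.60–4.04) and 8.09 (4.45–16.4), or 1.64 and 3.60 without cells passing more than 1 gate and 1.75 and 1.51 with classes weighted equally. In cells with at least 90% of hashtag counts from their own hashtag the ratios were 2.74 and 12.7. The *Serpinb2* counts came from few cells: the top 1% of cells held 89.5% and 93.4% of them on CDA-HFD, and 1 peritoneal macrophage-like cell held 69 of the 288 counts of the CDA-HFD Cre mouse. The 4 peritoneal macrophage markers (*Icam2* the most abundant) summed to 37.1, 37.9, 25.1 and 33.2 CPM in the 4 mice, and their part in the *Serpinb2* level was not tested. *Serpinb2* overlaps *Serpinb10*, so its counts are uncertain. Among the larger classes, Ly6C hi monocyte-like cells led on CDA-HFD at 5.0 CPM (3.65–6.69) in the control and 13 CPM (10.7–15.8) in the Cre mouse, where 4.39% and 5.24% of cells had a count (1.46% and 1.35% when thinned) and 0 of 224 lymphoid-like cells did. The control mouse overlapped there with neutrophil-like cells at 4.19 CPM (2.34–6.90). The genotype ratio in Ly6C hi monocyte-like cells was 2.61 (1.82–3.79), but 1.40 without the 1% of cells highest for the gene and 0.971 with clusters, so its direction turned with the way the class was drawn. The diet ratio there in Cre mice, 2.18 (0.828–8.16), has an interval that includes 1 and was 1.30 with clusters.

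*Thbd* encodes thrombomodulin, which binds thrombin and turns it towards activating protein C, an anticoagulant. Its level was 8.49 CPM (7.51–9.56) in the ND control mouse, 9.27 (8.17–10.5) in the ND Cre mouse, 17.7 (16.9–18.7) in the CDA-HFD control mouse and 19.2 (18.3–20.1) in the CDA-HFD Cre mouse. The genotypes overlapped on both diets and the diets did not, at ratios of 2.09 (1.83–2.39) and 2.07 (1.82–2.37). As means over cells these were 1.87 and 1.96, without cells passing more than 1 gate 2.28 and 1.31, and with classes weighted equally 1.64 and 1.54.

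Among myeloid classes, *Thbd* was highest in monocyte-like cells. The endothelial cell-like cluster had *Thbd* at 40.3 CPM over all mice, from 62 counts. Endothelial cell-like cells held 6.20% of the *Thbd* counts of the ND Cre mouse, and their part in the diet and genotype ratios was not tested. Ly6C lo monocyte-like cells stood at 45.4 CPM (33.0–60.9) in the ND control, 42.9 CPM (28.9–61.2) in the ND Cre, 44.1 CPM (36.6–52.8) in the CDA-HFD control and 67.4 CPM (59.0–76.7) in the CDA-HFD Cre mouse. Ly6C hi monocyte-like cells stood at 4.67 CPM (1.88–9.63), 14.9 CPM (7.16–27.5), 47.3 CPM (43.0–52.1) and 39.9 CPM (35.6–44.5) in the same order. On ND the Ly6C lo class led without overlap, while on CDA-HFD the 2 classes overlapped in the control mouse and Ly6C lo led in the Cre mouse. Within Ly6C hi monocyte-like cells the diet ratio was 10.1 (4.88–25.4) in control and 2.67 (1.43–5.62) in Cre mice, resting on 7 and 10 counts on ND. It was 4.22 and 1.59 with clusters. With *Plaur* and *Serpinb2*, *Thbd* was 1 of 3 members past 2-fold higher of 5 tested in the class in Cre mice, against 12.7% of 8665 genes. In Ly6C lo monocyte-like cells the diet ratio was 0.972 in control and 1.57 in Cre mice. A count was found in 21.2% and 19.3% of Ly6C hi monocyte-like cells on CDA-HFD (9.21% and 9.63% when thinned), against 0.893% of lymphoid-like cells (0 when thinned). On ND, Kupffer cell-like cells had 9.70 CPM and 7.09 CPM and held 55.5% and 36.0% of the *Thbd* counts. Between genotypes on CDA-HFD, *Thbd* was past 2-fold lower in *Cd209a* dendritic cell-like cells of the Cre mouse, at 0.419 (0.235–0.723) from 46 and 20 counts, with 0.537 under clusters.

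Counted over gene and class pairs, the diet again gave more ratios past 2-fold than the genotype. In control mice 6 of 17 tested pairs were higher on CDA-HFD and 1 lower, against 8.30% and 5.78% of 43679 pairs over all genes. In Cre mice 8 of 17 pairs were higher and 0 lower, against 8.61% and 5.28% of 38542 pairs. Between genotypes on ND 0 of 14 pairs were higher and 1 lower, against 3.20% and 2.70% of 34939 pairs. Between genotypes on CDA-HFD 1 of 48 pairs was higher (*Serpinb2* in Ly6C hi monocyte-like cells) and 5 lower, against 2.01% and 1.49% of 90678 pairs. The counts of higher pairs between genotypes were near the background on both diets, while the 5 lower pairs of 48 on CDA-HFD were a larger share than the 1.49% of all pairs. Of these 5, only *F7* in hLAM-like cells was past 2-fold in each alternative setting that gave a value. Of the 23 class ratios of members past 2-fold, 13 were past it in each of the 6 alternative settings that gave a value and 10 were not.

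**Figure D3:**
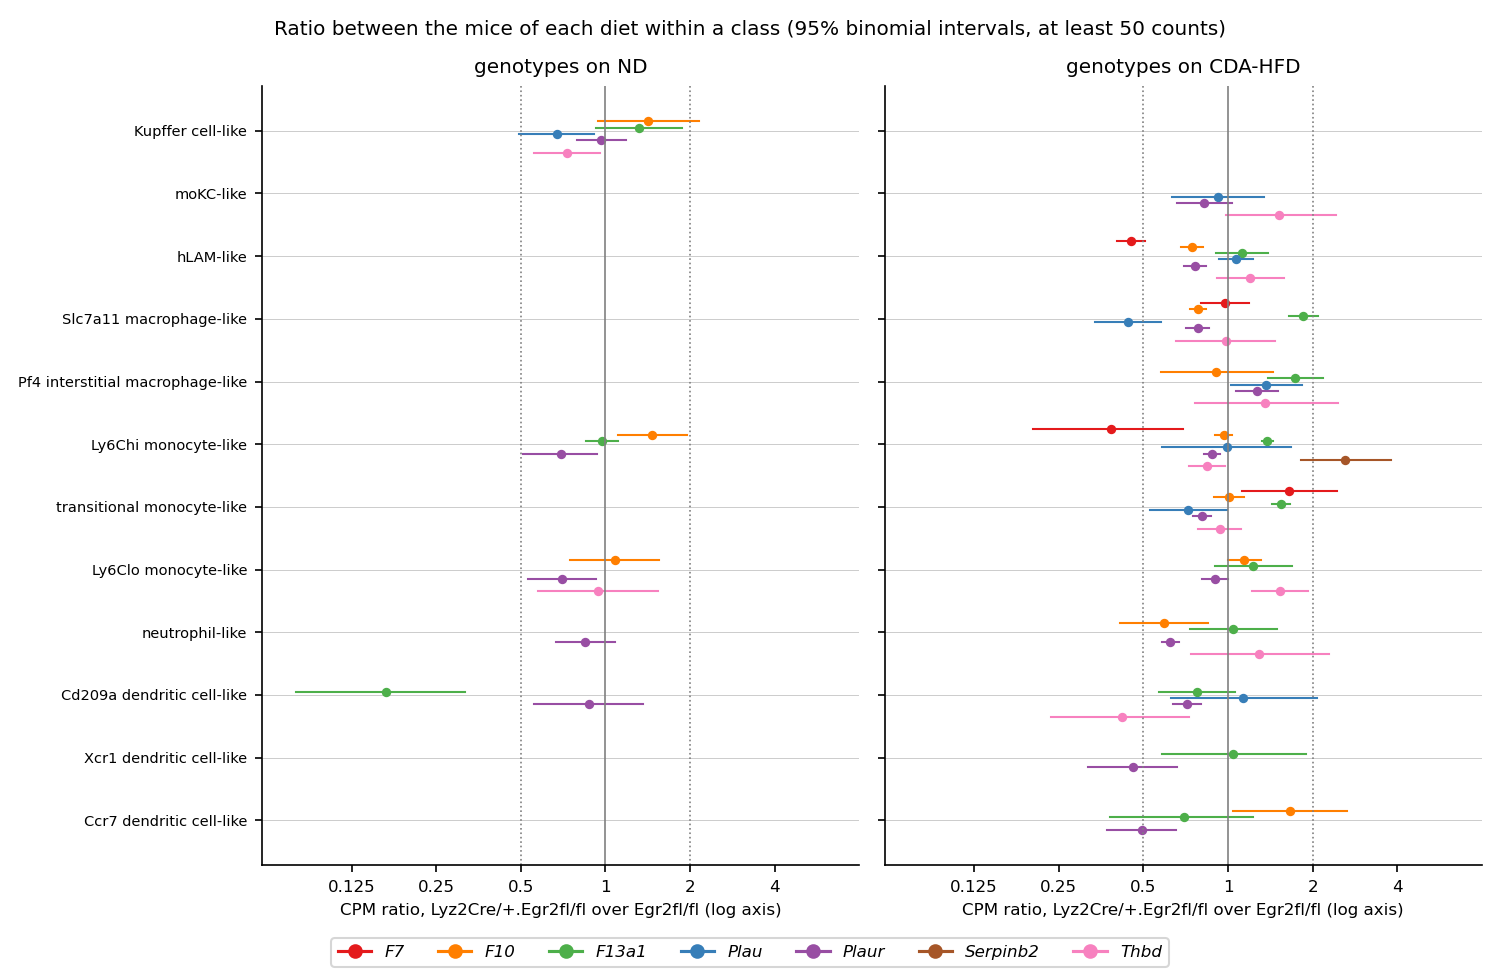
Ratio of the Cre to the control mouse within each class, on ND (left) and CDA-HFD (right), for the genes with a ratio, on a log2 axis with 95% intervals as lines and dotted lines at 0.5 and 2. On CDA-HFD *F7* in hLAM-like cells lies at 0.451 and *F13a1* in Ly6C hi monocyte-like cells at 1.38.

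Genes whose levels followed those of the members most closely were sought over 36 points of class and mouse, which share libraries, by Pearson's r of log2(CPM + 1) over 11840 genes. They were *Esd* (0.829), *Vsig8* (0.812) and *Lonrf3* (0.809) for *F7*, *Pgk1* (0.879), *Gm20658* (0.827) and *Ctps2* (0.819) for *F10*, and *Fn1* (0.886), *Vcan* (0.827) and *Plcb1* (0.805) for *F13a1*. For *Plau* they were *Pf4* (0.815), *Slc37a2* (0.812) and *Cxcl14* (0.810), and for *Thbd* *Zfyve9* (0.851), *Gm44805* (0.840) and *Metrnl* (0.836). *Plaur* was most like *Ugt1a8* (0.915), *Ugt1a6b* (0.912) and *Ugt1a7c* (0.904), which share exons with each other, so their counts are uncertain. *Pf4* is a marker of a gated class. Among the members the highest r was 0.699 between *F10* and *F13a1*, followed by 0.605 between *F7* and *Plau*, 0.597 between *F10* and *Plaur*, 0.569 between *F13a1* and *Plaur* and 0.544 between *F7* and *F10*. *Plau* had r of 0.0242 with *F10*, -0.0711 with *F13a1* and -0.0697 with its receptor gene *Plaur*, so the urokinase gene and its receptor gene did not share a pattern over classes. Within classes on CDA-HFD, *Plaur* was found in 80.0% of hLAM-like cells with *Plau* and 68.5% without in the control and in 60.8% and 55.6% in the Cre mouse, and in 72.2% and 52.0%, and 71.0% and 45.1%, of *Slc7a11* macrophage-like cells, where the cells with *Plau* were deeper in each case.

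Promoters were read for the members because most of them were higher on CDA-HFD together. RefSeq windows on GRCm38.p6, from 250 bases before to 50 after each start, were held for 6 of the 8 genes (8 windows, of 32851 in all), and none was held for *Plau* or *Thbd*. Motifs were searched on both strands as letters: EGR (GCGTGGGCG, in 0.612% of all windows), AP-1 (TGANTCA, 7.81%), SPI1 (GAGGAAGT, 3.20%), C/EBP (TTGCNNAA, 10.8%) and a nuclear receptor motif (TGACCTT, 4.72%). None of the 8 windows held the EGR letters. *F3* held 2 AP-1 matches, and both *Serpinb2* windows 1 AP-1 and 1 C/EBP match each. The windows of *F7* (chr8:13025784-13026083, plus strand), *F10* (chr8:13037058-13037357, plus strand), *F13a1* (the window that holds a match, chr13:37049164-37049463, minus strand) and *Plaur* (chr7:24462233-24462532, plus strand) are shown because they belong to the neighbouring genes of factors VII and X, to the gene led by Ly6C hi monocyte-like cells and to the receptor gene most often past 2-fold within a class. Capitals mark the nuclear receptor motif in *F7* and *F10*, SPI1 in *F13a1*, and AP-1 followed by C/EBP in *Plaur*. A match is a run of letters and no more.
F7: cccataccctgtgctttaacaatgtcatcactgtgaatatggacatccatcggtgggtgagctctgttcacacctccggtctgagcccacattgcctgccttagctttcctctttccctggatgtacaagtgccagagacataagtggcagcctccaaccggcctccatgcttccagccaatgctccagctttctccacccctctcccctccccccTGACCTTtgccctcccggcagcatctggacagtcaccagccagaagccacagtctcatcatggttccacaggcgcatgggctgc
F10: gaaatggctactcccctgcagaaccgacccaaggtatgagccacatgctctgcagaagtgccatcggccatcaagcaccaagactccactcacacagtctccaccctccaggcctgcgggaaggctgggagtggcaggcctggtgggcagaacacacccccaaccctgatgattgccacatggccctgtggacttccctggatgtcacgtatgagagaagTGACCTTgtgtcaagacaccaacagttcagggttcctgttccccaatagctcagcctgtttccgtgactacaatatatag
F13a1: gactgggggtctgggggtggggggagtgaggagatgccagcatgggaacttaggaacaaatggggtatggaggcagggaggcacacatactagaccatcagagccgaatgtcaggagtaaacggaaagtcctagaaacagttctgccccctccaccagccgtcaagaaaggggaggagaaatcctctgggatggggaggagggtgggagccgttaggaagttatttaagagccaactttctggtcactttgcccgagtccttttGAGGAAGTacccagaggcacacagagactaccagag
Plaur: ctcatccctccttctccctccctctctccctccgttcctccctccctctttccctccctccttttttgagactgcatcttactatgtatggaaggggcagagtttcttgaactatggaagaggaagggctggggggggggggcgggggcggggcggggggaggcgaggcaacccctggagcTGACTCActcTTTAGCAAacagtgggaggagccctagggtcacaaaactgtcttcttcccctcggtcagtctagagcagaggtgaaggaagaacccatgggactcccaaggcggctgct

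The other members lie at chr3:121723537-121735048 (*F3*, plus strand), chr13:36867178-37050244 (*F13a1*, minus), chr14:20836660-20843385 (*Plau*, plus), chr7:24462484-24475968 (*Plaur*, plus), chr1:107511423-107535478 (*Serpinb2*, plus) and chr2:148404466-148408188 (*Thbd*, minus) in GENCODE vM21.

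The rest of the pathway was taken from a list of 43 further genes, of which 40 had a row and at least 1 count. On CDA-HFD 5 of 29 tested were past 2-fold higher in control mice (among them *F5*, *F9*, *Plat* and *Anxa2*) and 10 lower. In Cre mice 7 of 31 were higher (among them *F5*, *F9*, *Plat*, *Anxa2*, *S100a10* and *Serpine2*) and 12 lower. Between genotypes 9 of 27 were higher in the Cre mouse on ND and 2 lower (*Vwf*, *Procr*), and 2 of 30 higher on CDA-HFD (*F8* at 2.38 and *F2r* at 2.18) and 0 lower. In this last comparison the endothelial markers summed to 26.7 CPM in the control and 54.6 CPM in the Cre mouse. No gene of the list was past 2-fold without cells of other tissue types. That setting takes out hepatocyte-, endothelial-, platelet-, stellate-, erythroid- and lymphoid-like cells together, and the part of any of them was not tested. The background shares over all genes are those given above for the same comparisons. Of the 9 higher on ND, most are genes of hepatocyte-made proteins (*F2*, *Fga*, *Fgb*, *Fgg*, *Kng1*, *Serpinc1*, *Plg*, *Serpinf2*), and the hepatocyte markers summed to 571 CPM in the control and 895 CPM in the Cre mouse, whose part was not tested. *Trf* alone made up 549 and 816 CPM of these sums, so they say little of the other hepatocyte markers. The genes of this list named here with under 500 counts (*F9*, *Plat*, *Serpine2*, *F2*, *Fga*, *Fgg*, *Kng1*, *Plg*, *Serpinf2*) were named after their values were seen.

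*F5*, the gene of factor V, stood at 2.59, 1.58, 5.33 and 5.13 CPM in the ND control, ND Cre, CDA-HFD control and CDA-HFD Cre mouse, with neutrophil-like cells at 22.9 and 23.6 CPM and Ly6C hi monocyte-like cells at 22.8 and 14.8 CPM on CDA-HFD. *Anxa2*, whose protein binds plasminogen and tissue plasminogen activator at the cell surface, stood at 212, 193, 478 and 404 CPM. Against these, *Tfpi*, the gene of tissue factor pathway inhibitor, stood at 18.3, 29.1, 6.95 and 5.77 CPM and *Pros1*, the gene of protein S, at 28.7, 34.4, 10.3 and 12.8 CPM. Both were lower on CDA-HFD, and on ND Kupffer cell-like cells held *Tfpi* at 22.0 and 29.3 CPM and *Pros1* at 39.2 and 41.5 CPM. The endothelial markers also fell, from 189 to 26.7 CPM in control and from 350 to 54.6 CPM in Cre mice, and the part of either cell type in the lower levels was not tested. *Procr*, the gene of the protein C receptor, stood at 29.1, 12.8, 12.0 and 10.6 CPM, with hLAM-like cells at 37.1 and 44.0 CPM on CDA-HFD and *Slc7a11* macrophage-like cells at 36.9 and 39.1 CPM, overlapping in both mice.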

How the data were processed

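Cells of 4 livers were pooled with hashtag antibodies and sequenced as BD Rhapsody TAS-Seq libraries. The authors deposited whole-number counts of genes and of hashtags per cell, unnormalized, and the submitters' processing notes name GRCm38, R 4.2.1 and Seurat 4.1.1. Each cell was assigned to a mouse by the deposited hashtag assignment, barcodes called doublets there were left out, and 7 hashtag columns of no mouse were not used. No barcode was kept for more than 1 cell (0). Cells with at most 25% mitochondrial counts were kept. Gates used log counts per 10000, and clusters used scanpy 1.11.5 with 3000 variable genes, 50 components, 15 neighbors, resolution 1.00 and seed 0, with igraph 0.11.9. Counts were summed per class and mouse with Python 3.11.15, numpy 2.4.6, pandas 2.3.3 and scipy 1.17.1, TMM factors came from edgeR 4.0.16 in R 4.3.3, and figures from matplotlib 3.10.9. With 1 mouse per group no test was made. Ratios needed 50 counts over both mice, classes in the count of pairs between genotypes on CDA-HFD at least 100 cells, and a level of 0 was bounded at 3 counts. The scripted steps were tested on simulated data. Named genes were the 8 members, *Egr2*, marker genes, for members with at least 500 counts the 3 genes most like each (highest r among genes with at least 500 counts), and pathway genes with at least 500 counts. The members and lists were chosen with earlier results of these data known. Alternatives covered the gate, clusters, means over cells, TMM, count minimums of 10 and 500, mitochondrial and hashtag limits, cells of several gates, other tissue cells and equal weights of classes. The pathway genes *F11*, *Serpina5* and *A2m* and the markers *Cpa3*, *Mcpt8*, *Apoa1* and *Gp5* had no row under this symbol. The values of 1 gene of the pathway list are not reported here.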

Additional observations from a re-analysis of the deposited data

Results flagged for a closer look

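*F13a1* had effects in opposite directions in groups under the same contrast. Within Ly6C hi monocyte-like cells its CDA-HFD to ND ratio was 0.910 in control and 1.29 in Cre mice, on opposite sides of 1. Over all cells its Cre to control ratio was 0.654 on ND and 1.43 on CDA-HFD. Neither of these pairs includes a ratio past 2-fold. Diet ratios in control and Cre mice were also on opposite sides of 1 in *Cd209a* dendritic cell-like cells (0.283 and 1.32) and in neutrophil-like cells (0.751 and 5.45), each pair with 1 ratio past 2-fold. With 1 mouse per group none of these differences was tested.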

How the results depend on the processing

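No paired analysis was possible because each group held 1 mouse. Over all cells, the count of members past 2-fold changed as follows. In control mice the diet count went from 7 to 3 without cells passing more than 1 gate and to 1 with classes weighted equally, and in Cre mice from 7 to 3 and to 0. The former setting takes out 1184 of 1193 Kupffer cell-like cells, and equal weights, which need 50 cells in both mice, leave out Kupffer cell-like cells and the macrophage classes found on CDA-HFD. The genotype count on ND went from 1 to 2 at a minimum of 10 counts, which adds *F3*, and to 0 with equal weights. The genotype count on CDA-HFD went from 2 to 1 as a mean over cells, at a minimum of 500 counts (which leaves *F3* out), without cells passing more than 1 gate (a higher *Serpinb2* in place of both) and with equal weights. The other settings left each count within 1.5 times, and a mean over cells gave 5 in both diet comparisons.

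The settings of the pathway list were chosen after seeing the data. Its diet count in control mice, 15, became 6 at a minimum of 500 counts, 9 without cells passing more than 1 gate and 4 with equal weights, and in Cre mice 19 became 8, 9 and 2. On ND between genotypes 11 became 19 at a minimum of 10 counts, 2 at 500, 7 without cells passing more than 1 gate and 5 with equal weights. On CDA-HFD between genotypes 2 became 4 as a mean over cells, 8 at 10 counts, 0 at 500, 1 in cells with at least 90% of hashtag counts from their own hashtag, 4 without cells passing more than 1 gate and 0 without cells of other tissue types. A count minimum changes which genes are tested, and for the rest the cause was not tested.

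Within classes, also chosen after seeing the data, the count of 6 member ratios past 2-fold between genotypes on CDA-HFD was 7 under a stricter gate, 4 with clusters, 7 as a mean over cells and 5 without the 1% of cells highest for the gene. Recomputing 98 class ratios gave 532 values, of which 450 stayed inside the interval, 81 moved out and 1 was counted as reversed. The reversed ratio was *Serpinb2* in Ly6C hi monocyte-like cells between genotypes on CDA-HFD, from 2.61 to 0.971 with clusters, and the cause was not tested. A ratio short of 2-fold that crossed 1 was not counted as reversed. Only the 40 class levels with at least 300 counts were recomputed, so none of *F3* or *Serpinb2*. Of their 225 values 129 stayed inside the interval and 96 moved out. The widest move among them was *Plaur* in *Pf4* macrophage-like cells of the CDA-HFD Cre mouse, by 3.12 times with clusters. Ratios moved further, by up to 40 times for *F10* in *Ccr7* dendritic cell-like cells between genotypes on CDA-HFD with clusters, 6.71 times for *F7* in Ly6C hi monocyte-like cells between diets in control mice without the 1% of cells highest for the gene, and 6.49 times for *F13a1* in Ly6C lo monocyte-like cells between diets in Cre mice under a stricter gate. A class missing or under 50 cells in a setting gave no value. Depth limits *F3* and *Serpinb2* most, with 99 and 474 counts.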

Other observations

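A group of 36 cells that stayed unnamed in the clustering (0, 3, 12 and 21 cells in the ND control, ND Cre, CDA-HFD control and CDA-HFD Cre mouse) was chosen after its values were seen. Its leading genes included *Il4*, *Alox15*, *Prg2*, *Il6*, *F5*, *Il5ra* and *Ccr3*, along with *Serpinb2*. *Serpinb2* stood there at 515 CPM (371–697) in the CDA-HFD control and 375 CPM (278–495) in the CDA-HFD Cre mouse, and the 92 counts of these cells were 19.4% of all *Serpinb2* counts. A count was found in 12 of the 36 cells (33.3%), at a median depth of 5045 counts. Of these cells 22 were ungated.

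Some pathway genes are given by class. *Anxa2* stood at 1684, 1528, 1252 and 1133 CPM in neutrophil-like cells of the ND control, ND Cre, CDA-HFD control and CDA-HFD Cre mouse. *Anxa5*, whose protein binds the membrane lipids on which clotting factors assemble, stood at 1099 and 1106 CPM in hLAM-like cells of the CDA-HFD control and Cre mouse, and at 451, 468, 607 and 622 CPM over all cells of the 4 mice. *Procr* reached 91.2 CPM in *Xcr1* dendritic cell-like cells of the ND control mouse.

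Further pathway genes with at least 500 counts are given by their levels in the ND control, ND Cre, CDA-HFD control and CDA-HFD Cre mouse. Of the vitamin K cycle, which readies factors VII and X for work, *Vkorc1* stood at 80.8, 94.9, 47.9 and 52.8 CPM, *Vkorc1l1* at 14.7, 18.2, 15.3 and 16.3 CPM and *Ggcx* at 3.90, 3.88, 2.52 and 2.75 CPM. The plasminogen-binding genes *Plgrkt* and *S100a10* stood at 77.5, 69.0, 67.0 and 64.9 CPM and at 198, 143, 298 and 287 CPM. *Lrp1*, a receptor that clears complexes of protease and inhibitor, stood at 450, 560, 348 and 362 CPM. *F8*, the gene of factor VIII, stood at 6.15, 15, 1.54 and 3.66 CPM, *Vwf* at 3.87, 1.47, 2.19 and 1.66 CPM and the thrombin receptor gene *F2r* at 4.78, 9.05, 1.54 and 3.35 CPM. *Fgb*, of fibrinogen, stood at 3.25, 8.05, 1.19 and 0.799 CPM and *Serpinc1*, of antithrombin, at 2.56, 5.68, 2.01 and 1.5 CPM. In these values the CDA-HFD mice were below the ND mice of the same genotype for *Vkorc1*, *Ggcx*, *Plgrkt*, *Lrp1*, *F8*, *F2r*, *Fgb* and *Serpinc1*, and above for *S100a10*.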
